A study of Drosophila melanogaster with 36 samples.

Results

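Male brains of Drosophila melanogaster larvae whose H3.2 histone carries arginine in place of lysine 36 (H3.2K36R) were compared with male brains of the matching control across all genes. The comparison rests on 6 of the 36 libraries of the series, 3 with the genotype H3.3WTH3.2K36R and 3 with the genotype H3.3WTH3.2HWT, chosen by their titles. All 6 came from brains of wandering L3 larvae raised at 25 °C with 50 larvae per vial. Both genotypes carry H3.3WT, so the variant histone H3.3 is wild type in each, and they differ at H3.2, where HWT is the control state. The labels do not describe the transgenes or deletions behind these names. The study also held the females of both genotypes, Set21 with its control yw, and H3.3K36RH3.2HWT with its control H3.3CtrlH3.2HWT. The females, the Set21 and yw males and the males of both H3.3 groups are used below to show where the H3.2K36R males differed from them. Brain RNA was selected for polyA tails and made into stranded libraries, and the files hold raw counts of reads per gene.

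H3.2 is the form of histone H3 that is made and laid into chromatin during DNA replication, whereas H3.3 is made throughout the cell cycle and replaces H3.2 at active genes. Lysine 36 of either form can carry methyl groups. In flies Set2 places the trimethyl mark over the bodies of transcribed genes, and NSD and Ash1 place the mono- and dimethyl forms. The mark is known from yeast and flies for its roles in keeping transcription from starting inside genes, in splicing, in DNA repair, in dosage compensation of the male X chromosome and in opposing Polycomb repression. Arginine cannot take these methyl groups. The larval brain at this stage holds neural stem cells that are still dividing, their maturing daughters, functioning larval neurons and glia.

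The libraries were deep, with 104.4, 83.84 and 88.49 M reads in genes for H3.2K36R and 103.0, 143.8 and 93.54 M for the control, in the order of libraries 1, 2 and 3, which is kept throughout. Levels are CPM, counts divided by the library's total in M reads, and scaled with TMM factors, which correct each library for differences in composition. General neuronal and glial genes marked all 6 libraries as brain: elav, an RNA-binding protein of neurons, lay between 909 and 1060 CPM, brp, a protein of the presynaptic active zone, between 774 and 927 CPM, and repo, the glial transcription factor, between 99.97 and 115.5 CPM, and none of them was called changed. Some libraries held traces of other tissue. H3.2K36R library 1 had 49.9 CPM of Jonah gut proteases, against 0.695 and 0.469 CPM in the other H3.2K36R libraries and 1.24, 0.660 and 0.505 CPM in the controls. Storage proteins of the fat body summed to 237, 47.9 and 9.43 CPM in H3.2K36R libraries and 503, 359 and 39.5 CPM in control libraries, highest in control libraries 1 and 2. Control library 1 had more transcripts of epidermis and discs: aristaless (al), a homeobox gene of appendage tips, had 0.0932, 0.141 and 0.0112 CPM in H3.2K36R brains, against 9.07, 0.295 and 0.258 CPM in control brains. Where leaving out 1 library moved a count of a gene list by over 1.5 times, and the larger of the 2 counts was 4 or more, the count without it is given. The labels do not say whether libraries of a group came from separate animals or pools. The p-values therefore measure the spread between libraries of the same group, which may be technical. That spread was estimated over all 36 libraries, not from the 6 compared alone. The labels do not state whether reads were counted by strand, so genes that overlap a gene on the other strand are uncertain and are named as such.

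Of 17606 genes, 12167 had enough reads to be tested. At an adjusted p of 0.05 (edgeR's quasi-likelihood test fitted over all 36 libraries, Benjamini-Hochberg over all genes tested, 2-sided), 3091 genes (25.4%) were called changed in H3.2K36R males. Of these, 1493 (12.3% of genes tested) were higher and 1598 (13.1%) lower. The size of change differed between the directions. In 4661 genes (38.3%) the 3 mutant libraries all lay on one side of the 3 controls. The median called rise was 0.57 on the log2 scale and the median called fall −0.22, and 590 genes (4.85%) rose at least 2-fold while 138 (1.13%) fell that far, together 5.98%. The median over all genes was 0.00. Leaving out 1 library at a time gave 2457 to 2790 calls, and leaving out both libraries numbered 1 gave 2227. A fit of the 6 libraries alone called 2302 genes. The 2-fold changes were concentrated at low levels, and most genes above 100 CPM that changed did so by a small fold.

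**Figure D1:**
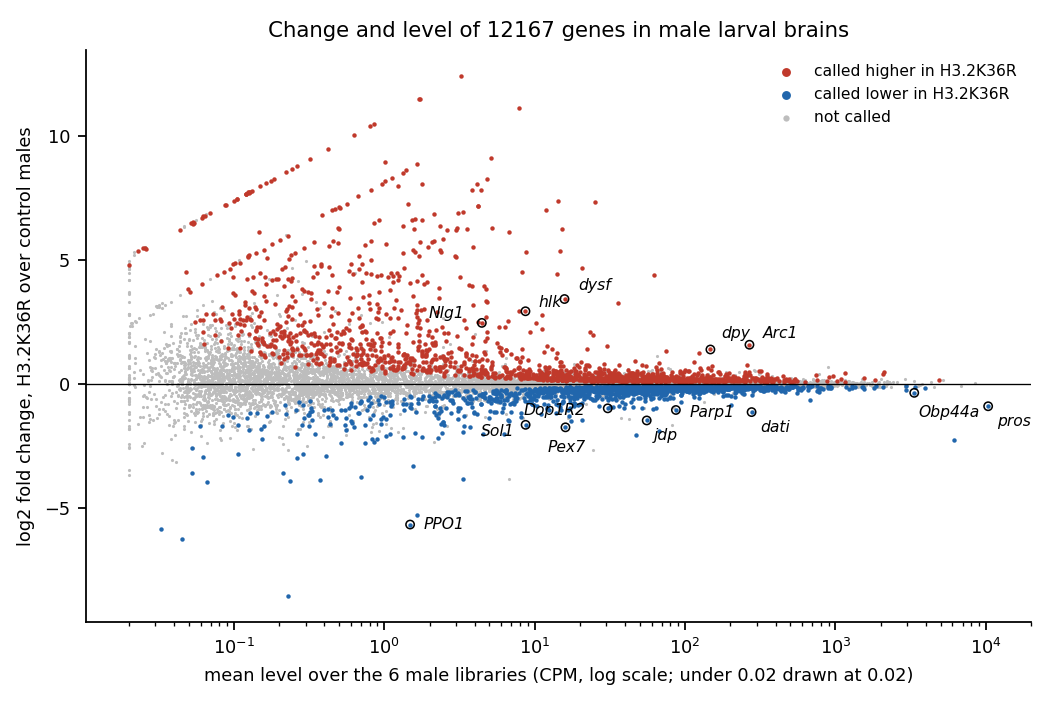
Log2 fold change in H3.2K36R male brains over control male brains (vertical axis) against the mean level over the 6 libraries in CPM (horizontal log axis), 1 point per tested gene, with called genes coloured. The 590 rises of 2-fold or more outnumber the 138 falls of that size and lie mostly at low levels, while called falls of small size fill the range above 10 CPM.

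Set2 and the H3.3 genes differed by small folds between the genotypes. Set2, the trimethyl transferase, had 160, 166 and 167 CPM in H3.2K36R brains and 169, 175 and 184 CPM in control brains. Its groups do not overlap, but the difference was small (log2 fold change −0.10, SE 0.03, adjusted p = 0.03) and the call held in 7 of 12 settings, with adjusted p up to 0.14. The H3.3 genes His3.3A (−0.14, adjusted p = 0.072) and His3.3B (−0.05, adjusted p = 0.42) did not pass the test. Of the dosage compensation complex, which raises X-linked transcription in males, roX1 (0.09, adjusted p = 0.87), roX2 (−0.62, adjusted p = 0.49) and msl-2 (−0.04, adjusted p = 0.77) did not pass. The roX2 libraries did not overlap, at 26.8 to 30.2 CPM in H3.2K36R and 36.3 to 49.5 CPM in control males, and a fit of the 6 libraries alone called roX2 lower (adjusted p = 0.009). Of the whole dosage compensation list 1 of 12 tested genes was lower (8.33%, against 13.1% of all genes). The sex-determination gene Sxl averaged 239 ± 23.2 CPM in H3.2K36R and 321 ± 50.1 CPM in control males (SD, n = 3 each) and was lower (−0.43, SE 0.10, adjusted p = 0.0017). The list of H3K36 methylation factors and readers held 1 higher (4.17%, against 12.3% of all genes) and 7 lower genes (29.2%, against 13.1%) of 24. The shift of X-linked genes relative to the autosomes was −0.0169 on the log2 scale between the genotypes (exact 2-sided permutation test over 20 assignments, p = 0.2, where the smallest possible p is 0.1).

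Transcription factors that set the identity of neurons were lower as a group in H3.2K36R males. Of 79 tested, 36 were lower (45.6%, against 13.1% of all genes) and 2 higher (2.53%, against 12.3%), with a median of −0.16. On the germline, testis or neural stem cell lists too are 7 of these factors, 1 of them among the higher. Across the alternative settings 28 to 40 were lower, and 30 of the 36 were also lower in females. Here as elsewhere in whole brains, fewer cells of a type and less RNA per cell cannot be told apart.

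Among these factors the largest fall in CPM was in prospero (pros), which is also on the neural stem cell list. This homeodomain factor ends self-renewal as neural daughters differentiate. It had 7327, 7441 and 6919 CPM in H3.2K36R brains, against 11739, 14255 and 14499 CPM in control brains. Every mutant library lay well below every control library, and the fold change was −0.90 on the log2 scale (SE 0.09, adjusted p = 3.2e-09). The zinc-finger factor datilografo (dati), on chromosome 4, had 190, 164 and 165 CPM in H3.2K36R brains and 341, 387 and 415 CPM in control brains, again with no overlap (−1.14, SE 0.07, adjusted p = 1.4e-12). Both genes overlap a gene on the other strand. The iroquois gene caup fell as well, with 14.1, 13.4 and 12.5 CPM against 22.8, 22.4 and 23.9 CPM (−0.79, SE 0.06, adjusted p = 1e-10).

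Both Pax6 genes, which the optic lobe and mushroom body need, were lower without overlap. Twin of eyeless (toy) had 161, 161 and 166 CPM in H3.2K36R brains and 212, 227 and 227 CPM in control brains (−0.45, SE 0.05, adjusted p = 9.4e-08). Eyeless (ey) had 56.7, 56.8 and 54.3 CPM against 70.4, 79.2 and 75.6 CPM (−0.42, adjusted p = 2.2e-07). Chinmo, a factor of early-born neurons, was lower by less (−0.26, adjusted p = 2.1e-04), and the RNA-binding protein Imp, which marks young neural stem cells and early-born neurons, was higher, with 408, 398 and 399 CPM against 348, 353 and 326 CPM (0.23, adjusted p = 8e-04). Genes chosen after their values were seen include the sexual-behaviour factor fruitless (fru), with 61.5, 56.3 and 61.1 CPM against 81.3, 81.5 and 80.1 CPM (−0.44, SE 0.09, adjusted p = 2.9e-04), and Pox neuro (Poxn), with 1.79, 1.51 and 1.88 CPM against 3.75, 3.19 and 3.25 CPM (−0.97, adjusted p = 4.4e-07). Doublesex (dsx), also chosen so, had 8.25, 8.40 and 8.67 CPM in H3.2K36R brains and 15.4, 9.26 and 9.77 CPM in control brains (−0.44, adjusted p = 0.0087). Its highest value is in control library 1, the library with traces of disc transcripts, and without that library it was not called (−0.17, adjusted p = 0.22).

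Among ion channels and transmitter receptors more genes were higher than lower over the 6 libraries, by small folds. Of 43 tested ion channel genes, 11 were higher (25.6%) and 1 lower (2.33%), and of 51 transmitter receptors 12 were higher (23.5%) and 4 lower (7.84%). Over all genes 12.3% were higher and 13.1% lower. The medians were near 0, at 0.02 for channels and 0.09 for receptors. These counts depend on single libraries. Higher channels numbered 6 without control library 1, 7 without control library 3, and 5, 7 and 7 without H3.2K36R library 1, 2 or 3, and 4 without both libraries numbered 1, when 4 were lower as well. Higher receptors numbered 6 without control library 1, 5, 7 and 6 without H3.2K36R library 1, 2 or 3, and 2 without both libraries numbered 1, and lower receptors numbered 2 without control library 2. Without H3.2K36R library 1 the balance of receptors turned, with 5 higher and 6 lower.

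The largest rises among channels were in X-linked genes. Ca-alpha1T, a T-type calcium channel, had 193, 196 and 192 CPM in H3.2K36R brains against 129, 144 and 140 CPM in control brains (0.49, SE 0.07, adjusted p = 1.1e-05). SK, a calcium-activated potassium channel, had 196, 196 and 196 CPM against 136, 149 and 136 CPM (0.48, adjusted p = 3.1e-05). The groups were far apart relative to their spread in both. The gene eag, for a voltage-gated potassium channel, was higher by 0.35 (adjusted p = 6.8e-06), and Hk, a potassium channel beta subunit that overlaps a gene on the other strand, by 0.55 (adjusted p = 1.1e-05). The single lower channel was NaCP60E (−0.39, adjusted p = 1.3e-04). Nicotinic acetylcholine receptor subunits were among the higher receptors: nAChRalpha7 had 282, 306 and 289 CPM against 189, 212 and 223 CPM (0.49, SE 0.10, adjusted p = 3e-04), and nAChRalpha3 had 70.8, 69.0 and 67.9 CPM against 55.5, 59.2 and 54.6 CPM (0.29, adjusted p = 0.0011). Both dopamine D1-like receptors were lower. Dop1R2 had 21.7, 20.1 and 19.8 CPM in H3.2K36R brains, against 39.4, 43.1 and 39.4 CPM in control brains (−0.98, SE 0.08, adjusted p = 2.5e-10), and Dop1R1 had 65.1, 61.0 and 59.9 CPM against 68.4, 84.3 and 73.0 CPM (−0.28, adjusted p = 0.0056), a call lost without control library 2 (adjusted p = 0.062).

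Among 120 axon guidance and adhesion genes, 21 were higher (17.5%, against 12.3% of all genes) and 12 lower (10%, against 13.1%), with a median of 0.05. The higher count was 10 with both libraries numbered 1 left out, and the lower count was 6 in a fit of the 6 libraries alone. Dscam2, a recognition molecule of neurites, had 1255, 1374 and 1353 CPM in H3.2K36R brains against 932, 973 and 1016 CPM in control brains (0.45, adjusted p = 5.7e-04). The guidance receptors drl (−0.16) and robo2 (−0.19) were lower. The X-linked microtubule-associated protein futsch had 810, 831 and 883 CPM against 611, 716 and 636 CPM (0.36, adjusted p = 0.0012). Genes of synaptic vesicle release held 4 higher (11.8%, against 12.3% of all genes) and 0 lower of 34 tested, with a median of 0.01. The largest of these was Rph, a rabphilin, with 131, 142 and 145 CPM against 104, 97.2 and 110 CPM (0.43, adjusted p = 8.7e-05), and it too overlaps a gene on the other strand.

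Genes of transmitter synthesis and loading held 1 higher (4.17%, against 12.3% of all genes) and 4 lower (16.7%, against 13.1%) of 24, with a median of −0.20. Both genes of the cholinergic locus were among the lower. VAChT, which loads acetylcholine into vesicles, had 213, 213 and 223 CPM in H3.2K36R brains and 236, 261 and 252 CPM in control brains (−0.21, adjusted p = 3.3e-05). ChAT, which makes acetylcholine, had 45.4, 44.9 and 45.1 CPM against 57.4, 60.9 and 58.1 CPM (−0.38, adjusted p = 9.1e-05), and since the genes share a first exon their reads may not be fully separated. Portabella (prt), a vesicular transporter of the mushroom body, had 7.79, 6.08 and 7.27 CPM against 12.6, 14.1 and 11.3 CPM (−0.85, adjusted p = 7.1e-05). The glutamate transporter VGlut had 315, 314 and 318 CPM against 310, 321 and 305 CPM, with overlapping groups (0.02, adjusted p = 0.82). Of 47 neuropeptide and peptide hormone genes 4 were higher (8.51%) and 1 lower (2.13%), or 3 higher and 4 lower without H3.2K36R library 1. One of the higher was insulin-like peptide 3 (Ilp3), made by the insulin-producing cells of the brain, with 29.2, 27.3 and 32.4 CPM against 19.7, 21 and 22.4 CPM (0.50, adjusted p = 1.7e-04). Of 37 glial genes 1 was higher (2.7%) and 6 lower (16.2%), with moody, a receptor of the blood-brain barrier on the X, the higher one (0.38, adjusted p = 3.2e-05).

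Chromatin genes were lower in larger shares than the 13.1% over all genes. Of 37 heterochromatin genes 19 were lower (51.4%) and 3 higher, and 16 of the 19 were also lower in females. Of 32 Polycomb and trithorax group genes 16 were lower (50.0%) and 0 higher, and 13 of the 16 were also lower in females. In a fit of the 6 libraries alone, 10 of the Polycomb and trithorax genes were lower. Folds were small in most of them, with medians of −0.11 and −0.09.

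The exception in size was Parp1, the enzyme that builds poly(ADP-ribose) on chromatin and at DNA breaks and lies in heterochromatin near the centromere of chromosome 3. It had 57.0, 58.2 and 54.4 CPM in H3.2K36R brains against 116, 120 and 115.5 CPM in control brains. The mean was 56.6 ± 1.94 CPM in H3.2K36R brains and 117 ± 2.80 CPM in control brains (SD, n = 3 each), so the gap was many times the spread (−1.05, SE 0.05, adjusted p = 5.4e-16). Among HP1 proteins, which bind methylated lysine 9, HP1a was lower by little (−0.19, adjusted p = 2.2e-05), and HP1b had 59.1, 63.5 and 64.0 CPM against 76.4, 75.7 and 72.4 CPM (−0.27, adjusted p = 4e-07). The corepressor CoRest had 199, 204 and 206 CPM against 235, 248 and 238 CPM (−0.24, adjusted p = 6.7e-07). The rises were in HP1 relatives that are near silent in control brains: HP1D3csd had 2.21, 2.38 and 1.94 CPM in H3.2K36R brains against 0.232, 0.203 and 0.194 CPM (3.37, adjusted p = 1.1e-08).

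Within the Polycomb and trithorax list the lower genes came from both sides. The factor pho, which recruits Polycomb complexes to DNA, had 110, 111 and 114.6 CPM in H3.2K36R brains and 136, 140 and 140 CPM in control brains (−0.31, adjusted p = 9.9e-08). Psc, of Polycomb repressive complex 1, had 188, 190 and 202 CPM against 243, 239 and 254 CPM (−0.34, adjusted p = 4.7e-07). The gene ph-p of the same complex (−0.27) and brm, the ATPase of the trithorax-group remodeller (−0.23), were lower too. The JmjC-domain protein Kdm2 had 175, 179 and 181 CPM against 204, 202 and 210 CPM (−0.20, adjusted p = 5.1e-06), and the deacetylase HDAC1 had 286, 287 and 292 CPM against 338, 336 and 340 CPM (−0.23, adjusted p = 1.2e-05). These 2 genes overlap genes on the other strand. Insulator and architectural proteins held 2 higher (7.69%, against 12.3% of all genes) and 6 lower (23.1%, against 13.1%) of 26.

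Of the Hox genes and other Polycomb targets, 12 of 34 were lower (35.3%, against 13.1% of all genes) and 2 higher (5.88%, against 12.3%). The median was −0.18, and 4 were higher without control library 1. Part of these falls came with a high control library 1. Engrailed (en), a segment-polarity factor, had 3.83, 4.15 and 3.42 CPM in H3.2K36R brains and 13.5, 5.61 and 5.77 CPM in control brains (−1.13, SE 0.24, adjusted p = 7.5e-04). Without control library 1 the fall of en was smaller and still called (−0.58, adjusted p = 0.029), and without both libraries numbered 1 it was not (adjusted p = 0.055). The Hox gene Scr had 13.4, 16.2 and 16.1 CPM against 44.9, 15.5 and 17.4 CPM, so that its difference (−0.77, adjusted p = 0.0068) rests on control library 1, without which Scr was at −0.12 (adjusted p = 0.42).

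DNA damage and repair genes moved in both directions. Of 46 repair genes, 10 were higher (21.7%, against 12.3% of all genes) and 8 lower (17.4%, against 13.1%). The lower count was 5 without control library 2 or without H3.2K36R library 1. Their largest fall was in Parp1 and their largest rise in p53, both also counted in other lists. PolQ, the polymerase of end joining through short homologies, had 27.3, 26.5 and 26 CPM in H3.2K36R brains against 34.1, 34.2 and 34.9 CPM in control brains (−0.37, adjusted p = 4.4e-06). Its groups are apart by several times their spread.

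The gene p53, counted above among the repair genes, was higher. So were 3 genes known from damage responses. These were picked from other lists or, for hid, after its values were seen, and no list of p53 targets was counted. The gene p53 had 14.1, 14.3 and 14.5 CPM in H3.2K36R brains against 8.66, 8.73 and 9.61 CPM in control brains (0.67, SE 0.09, adjusted p = 1.2e-06). Corp, a p53 target that acts back on p53, had 9.34, 9.95 and 9.90 CPM against 3.62, 4.37 and 4.62 CPM (1.21, SE 0.09, adjusted p = 4.6e-11). Gadd45, induced by damage and stress, had 27.7, 22.9 and 22 CPM against 16.9, 12 and 13.5 CPM (0.77, adjusted p = 9.5e-04), and the cell death gene hid had 47.6, 52.3 and 49.6 CPM against 40.5, 26.9 and 33.3 CPM (0.57, adjusted p = 0.0043, or 0.051 without control library 2). PolQ and p53 overlap genes on the other strand. Among 36 genes of JNK, tissue damage and JAK-STAT signalling, 9 were higher (25.0%), with p53, Corp and Gadd45 among them, and 5 lower (13.9%). Over all genes these shares were 12.3% and 13.1%. The higher count was 4 without control library 2 and 5 without H3.2K36R library 2, and the lower count was 3 without H3.2K36R library 3.

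Splicing genes were lower in 19 of 59 cases (32.2%, against 13.1% of all genes) and higher in 1, with a median of −0.06. The falls were small: Prp3 had 114.6, 114 and 118 CPM in H3.2K36R brains and 132, 141 and 137 CPM in control brains (−0.24, adjusted p = 2.8e-06), and Prp19 had 110, 109 and 111 CPM against 124, 129 and 129 CPM (−0.21, adjusted p = 8.9e-06). The single rise was Prp31, with 84.6, 84.1 and 90.0 CPM against 73.8, 73.8 and 76.5 CPM (0.21, adjusted p = 9.5e-06). All 3 encode parts of the spliceosome, and all 3 overlap genes on the other strand. Cell cycle and replication genes held 18 lower of 51 (35.3%) and 0 higher, and all 18 were also lower in females. The mitotic kinase aurB had 33.5, 37 and 37 CPM against 47.0, 49.3 and 48.2 CPM (−0.43, adjusted p = 1.5e-06), and Cdk1 had 44.4, 48.3 and 47.8 CPM against 59.6, 59.1 and 58.0 CPM (−0.33, adjusted p = 1.9e-04). These genes moved together with those of neural stem cells, of which 16 of 28 were lower (57.1%), with pros among them, and 2 higher (7.14%). Deadpan (dpn, −0.42, adjusted p = 4.3e-04) and miranda (mira, −0.39, adjusted p = 1.6e-04), which mark stem cells, were lower, and asense (ase) did not pass the test (−0.11, adjusted p = 0.27).

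Ribosomal protein genes were called less often than genes at large, and other genes of protein synthesis and breakdown at shares nearer to all genes. Of all genes tested 25.4% were called, against 8.33% of cytoplasmic and 12.5% of mitochondrial ribosomal protein genes. The shares were 27.8% for translation factors, 24.2% for tRNA synthetases, 20% for ribosome production and 21.9% for the proteasome. Of 84 cytoplasmic ribosomal proteins 3 were higher and 4 lower, and of 72 mitochondrial ones 4 were higher and 5 lower, with shares below those of all genes. The lower count of cytoplasmic ones was 2 without control library 1 or 2 or H3.2K36R library 2, and 9 without control library 3, and the higher count of mitochondrial ones was 2 without control library 1 or H3.2K36R library 2 or 3. The rises among cytoplasmic ribosomal proteins included germline-enriched duplicates, RpS5b (1.42) and RpS10a (5.16), and among 54 translation factors, with 5 higher and 10 lower (18.5%), the duplicate eIF4E3 (5.41). Of 40 genes of ribosome production 8 were lower and 0 higher, with 5 lower without control library 1 and 4 without control library 2. Of 33 tRNA synthetases 6 were lower and 2 higher, with 3 lower without H3.2K36R library 1. Of 32 proteasome genes 7 were lower and 0 higher, with 2 lower without control library 1 and 4 without H3.2K36R library 3.

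Genes of energy metabolism were lower in several lists, by small folds. Of 21 citrate cycle genes 8 were lower (38.1%, against 13.1% of all genes) and 0 higher, and all 8 were lower in females as well. Isocitrate dehydrogenase (Idh) had 304, 310 and 305 CPM in H3.2K36R brains and 349, 344 and 333 CPM in control brains (−0.16, adjusted p = 5.2e-05). Fum1 (−0.18), mAcon1 (−0.16) and Ogdh (−0.15), enzymes of the same cycle, were lower by like amounts. Of 31 genes of glycolysis and trehalose 8 were lower (25.8%) and 1 higher, with a median of −0.29, and 16 were lower in a fit of the 6 libraries alone. Glycerophosphate oxidase 1 (Gpo1), which carries electrons from cytosolic NADH to mitochondria, had 18.8, 15.6 and 17 CPM against 25.2, 25.8 and 25.7 CPM (−0.58, adjusted p = 4e-06). Gapdh1, a glycolytic enzyme, had 149, 148 and 154 CPM against 214, 219 and 193 CPM (−0.47, adjusted p = 0.011, or 0.066 without both libraries numbered 1), and Tret1-1, the trehalose transporter of the barrier glia, had 10.7, 9.66 and 12.6 CPM against 23.2, 22.7 and 21.9 CPM (−1.04, SE 0.16, adjusted p = 1.9e-05). None of these groups overlap.

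Of 56 solute transporters 16 were lower (28.6%, against 13.1% of all genes) and 4 higher. MFS18 had 24.2, 25.4 and 24.8 CPM in H3.2K36R brains against 36.5, 37.8 and 37.3 CPM in control brains (−0.58, adjusted p = 1.2e-11), and overlaps a gene on the other strand. The zinc transporter ZnT77C had 10.5, 9.50 and 10.1 CPM against 18.7, 17.2 and 17.4 CPM (−0.82). Lipid metabolism held 4 higher (7.27%) and 12 lower (21.8%) of 55, with 0 to 2 higher without control library 2 or 3 or any one H3.2K36R library. CPT2, which brings fatty acids into oxidation in mitochondria, had 15.4, 15.7 and 15.2 CPM against 18.4, 20.2 and 19.9 CPM (−0.34, adjusted p = 1.7e-06).

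Heat shock and protein folding genes held 6 lower (18.2%, against 13.1% of all genes) and 0 higher of 33. Atf6, a sensor of unfolded protein in the endoplasmic reticulum, had 62.2, 66.5 and 64.4 CPM in H3.2K36R brains and 90.9, 95.8 and 100.1 CPM in control brains (−0.57, adjusted p = 3.1e-09). PEK, another such sensor (−0.21), and the chaperone Calr (−0.15) were lower by less. Of 56 autophagy and lysosome genes 12 were higher (21.4%, against 12.3% of all genes) and 6 lower (10.7%). Lamp1, a lysosomal membrane protein, had 101, 97.8 and 98.9 CPM against 79.4, 86.4 and 83.2 CPM (0.26, adjusted p = 4.9e-05). The higher count was 7 without control library 2, control library 3 or H3.2K36R library 1, and the lower count was 1 without control library 1. Oxidative stress genes held 5 higher (19.2%) and 4 lower (15.4%) of 26, and detoxification genes 15 higher (12.1%) and 11 lower (8.87%) of 124. The lower count of oxidative stress genes was 2 without control library 1.

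Several of the largest rises were in genes with little RNA in control brains. Ranked were called genes at 5 CPM or more whose groups do not overlap. Left out were the germline, testis and stem cell lists, the Y and genes known by number only. Dysfusion (dysf), a bHLH-PAS transcription factor of tracheal fusion cells and leg joints, had 27.7, 28.5 and 30.4 CPM in H3.2K36R brains against 4.39, 1.28 and 2.46 CPM in control brains (3.42, SE 0.30, adjusted p = 7.6e-10). The gene hlk had 15.8, 14.3 and 16 CPM against 1.97, 2.25 and 1.82 CPM (2.93, SE 0.23, adjusted p = 5.7e-11). Neuroligin 1 (Nlg1), a postsynaptic adhesion protein, had 7.68, 7.34 and 7.59 CPM against 1.20, 1.52 and 1.39 CPM (2.46, SE 0.20, adjusted p = 2e-10). In each, the lowest mutant library lay several times above the highest control library. Oseg2, of the intraflagellar transport that builds cilia, had 6.73, 7.51 and 6.88 CPM against 0.639, 1.05 and 0.602 CPM (3.19, adjusted p = 2.1e-13), and osy, an ABC transporter of the cuticle barrier, had 9.12, 9.26 and 7.21 CPM against 3.17, 2.41 and 2.64 CPM (1.64, adjusted p = 1.5e-04). Genes known from the testis were among them: betaNACtes3 had 5.10, 5.6 and 6.47 CPM against 0.174, 0.168 and 0.140 CPM (5.14), and tut had 7.21, 6.62 and 7.83 CPM against 0.455, 0.351 and 0.613 CPM (3.94). Kots had 16.2, 15.6 and 15.5 CPM against 0.775, 0.674 and 0.645 CPM (4.49).

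Arc1 combined a high level with a large rise. It encodes a protein derived from a retrotransposon Gag that forms capsids and carries its own mRNA at synapses. It had 415, 389 and 401 CPM in H3.2K36R brains against 152, 117 and 134 CPM in control brains, so that the lowest mutant library was well above the highest control library (1.58, SE 0.11, adjusted p = 1.5e-11). Dumpy (dpy), a giant protein of the apical matrix, had 213, 218.1 and 209 CPM against 122, 60.4 and 62.1 CPM (1.39, adjusted p = 2.7e-05). Here control library 1, with its traces of epidermal transcripts, lay nearer to the mutant than the other controls did.

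Under the same limits the largest falls were smaller than the largest rises. Pex7, the import receptor for one class of peroxisomal enzymes, had 7.81, 7.22 and 6.99 CPM in H3.2K36R brains against 21.3, 29.5 and 23.3 CPM in control brains (−1.75, SE 0.16, adjusted p = 9.5e-10). Sol1, which overlaps a gene on the other strand, had 4.33, 3.61 and 4.68 CPM against 12.7, 15.2 and 11.7 CPM (−1.65, SE 0.13, adjusted p = 4.5e-11). The gene jdp had 31.4, 26.9 and 30.03 CPM against 76.0, 94.9 and 74.3 CPM (−1.47, SE 0.14, adjusted p = 3.4e-09). Genes in this ranking were chosen for groups that do not overlap, so their lack of overlap was fixed by the choice. The sarcomere gene sals, also with an overlapping antisense partner, had 9.28, 8.63 and 7.46 CPM against 17.3, 22.6 and 18 CPM (−1.19, adjusted p = 2.6e-09). Viking (vkg), a collagen IV chain made mainly by fat body and hemocytes, had 10.5, 8.49 and 8.70 CPM against 25.3, 34.2 and 17.7 CPM (−1.48, adjusted p = 0.0034), and the hemocyte enzyme PPO2 had 1.99, 1.69 and 1.47 CPM against 7.19, 6.80 and 3.2 CPM (−1.74, adjusted p = 0.0042).

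**Figure D2:**
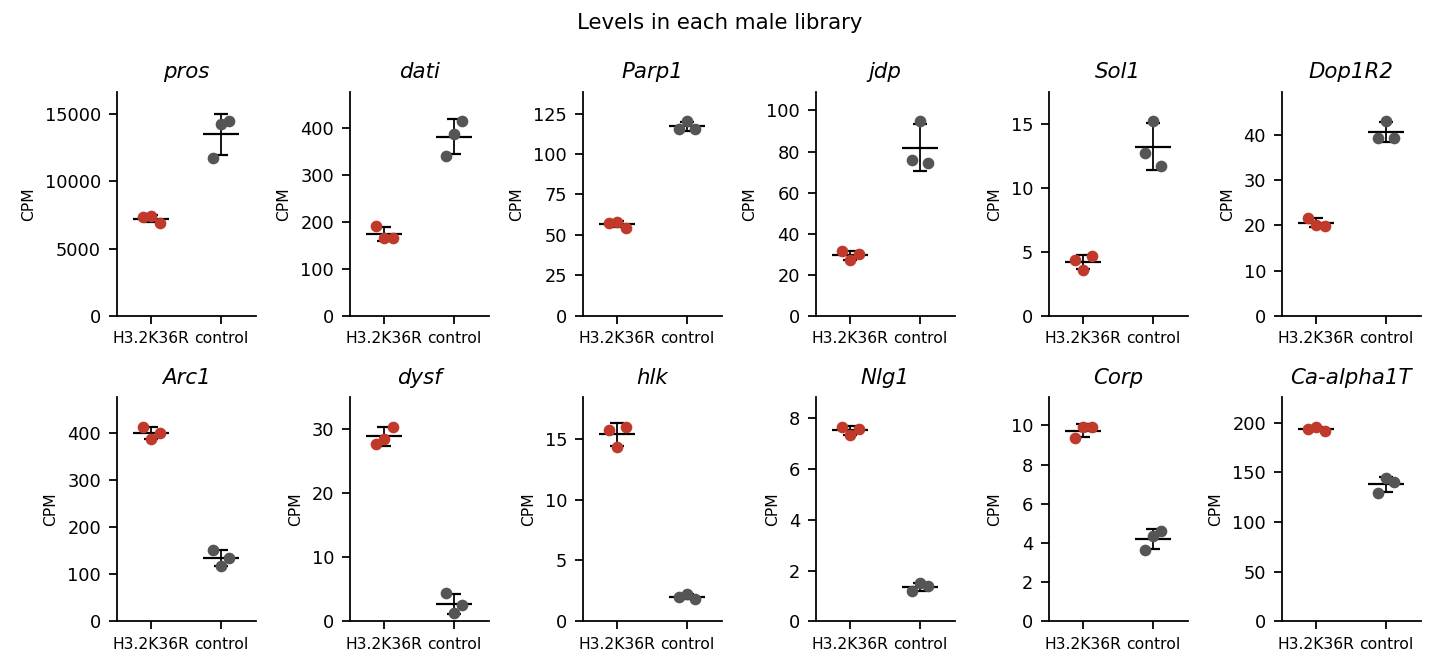
Level in CPM (vertical axes, from 0) of 12 genes in each of the 3 H3.2K36R libraries (left) and the 3 control libraries (right), 1 point per library, with bars at the mean ± SD. In Parp1 the H3.2K36R libraries lie at 57.0, 58.2 and 54.4 CPM against 116, 120 and 115.5 CPM in control, and in Arc1 at 415, 389 and 401 CPM against 152, 117 and 134 CPM.

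Several signalling lists held more lower than higher genes, and many of their counts moved with single libraries. Wnt signalling held 3 higher and 9 lower of 27, Notch 2 and 4 of 28, EGFR and FGF 4 and 6 of 30, BMP 2 and 2 of 19, and insulin and TOR 3 and 7 of 26. Hedgehog held 1 higher and 5 lower of 12, and Hippo 0 and 5 of 16. Lower genes made up 41.7% of the Hedgehog, 33.3% of the Wnt, 31.2% of the Hippo and 26.9% of the insulin and TOR list, against 13.1% of all genes. They made up 20% of the EGFR and FGF, 14.3% of the Notch and 10.5% of the BMP list. Of the lower counts, that of EGFR and FGF was 3 without control library 1, that of insulin and TOR 4 without control library 2, that of Hippo 3 without control library 1, that of BMP 4 without H3.2K36R library 1, and that of Hedgehog 2 without control library 1 and 3 without H3.2K36R library 2 or 3. In a fit of the 6 libraries alone the lower counts were 0 for Hedgehog, 2 for Hippo and 5 for Wnt. The gene numb, whose product blocks Notch in one of the daughters of a neural precursor, had 91.6, 96.8 and 100.2 CPM in H3.2K36R brains and 132, 129 and 124 CPM in control brains (−0.41, adjusted p = 3.9e-08). The kinase Pdk1 had 183, 170 and 168 CPM against 260, 246 and 256 CPM (−0.55, adjusted p = 1.2e-04). Maverick (mav), a ligand of the TGF-beta family, had 54.6, 55.6 and 56.7 CPM against 42.6, 37.3 and 41.8 CPM (0.46). Ecdysone response genes held 1 higher and 4 lower (10.8%) of 37, circadian genes 1 and 1 (6.25%) of 16, and cytoskeleton genes 4 and 8 (20.5%) of 39. Higher ecdysone genes numbered 7 in a fit of the 6 libraries alone and lower ones 2 without H3.2K36R library 3, and higher cytoskeleton genes 2 without control library 2 or H3.2K36R library 1.

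Immune, sensory and gut genes changed in both directions. Of 47 antimicrobial and immune genes 4 were higher (8.51%, against 12.3% of all genes) and 9 lower (19.1%, against 13.1%). The lower count was 5 without H3.2K36R library 2 and 4 without H3.2K36R library 3, and the higher count was 2 without control library 2 and 1 without H3.2K36R library 1. Dif, an NF-kappaB factor of the Toll pathway, had 14.2, 9.13 and 11.2 CPM in H3.2K36R brains against 21.7, 25.5 and 20.8 CPM in control brains (−0.98, adjusted p = 3.6e-06). Of 107 odorant-binding, gustatory and odorant receptor genes 14 were higher (13.1%) and 5 lower (4.67%). The higher count was 7 without control library 3, and 9 and 8 without H3.2K36R library 2 or 3. Leaving out either of these H3.2K36R libraries left 3 lower. Obp44a, an abundant odorant-binding protein of glia with an overlapping antisense partner, had 2870, 2829 and 3083 CPM against 3666, 3746 and 3861 CPM (−0.36, adjusted p = 5e-05), and Obp99a had 149, 144 and 141 CPM against 243, 289 and 243 CPM (−0.84). Of 50 digestive and serine proteases and related enzymes 13 were higher (26%) and 4 lower (8%). The higher count was 8, 6 and 5 without control library 1, 2 or 3. It was 3 without H3.2K36R library 1, the library with gut protease transcripts. The maltase Mal-A5 had 154, 146 and 145 CPM against 84.3, 81.1 and 75.4 CPM in all libraries (0.89, adjusted p = 1.2e-07). Of 89 chitin and cuticle genes 4 were higher (4.49%) and 2 lower (2.25%), with 10 higher without control library 1, and 5 and 4 lower without control library 2 or 3.

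**Figure D3:**
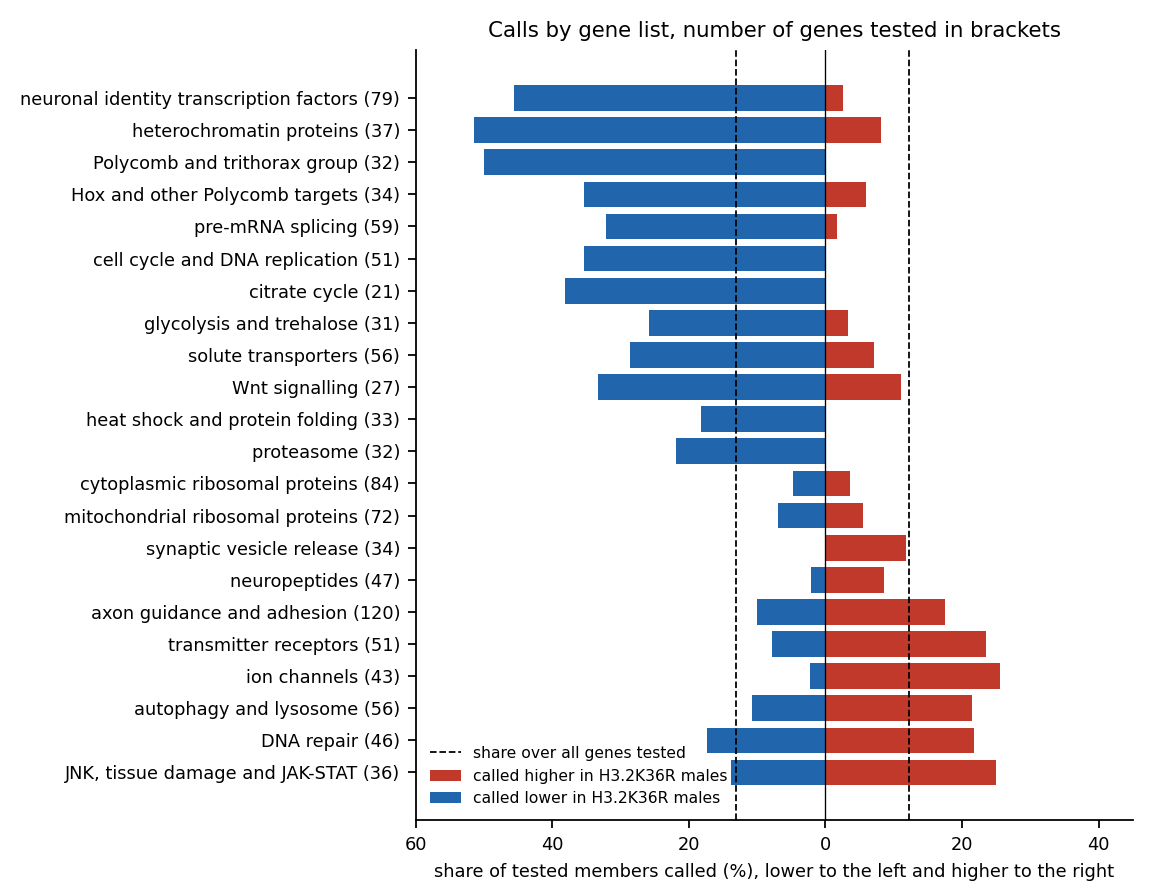
Share of the tested members of selected gene lists called lower (bars to the left) or higher (bars to the right). Values are for H3.2K36R males over control males, in percent. Dashed lines mark the shares over all genes tested, 13.1% lower and 12.3% higher. Among the lists drawn, heterochromatin (51.4% lower), Polycomb and trithorax group (50.0%) and neuronal identity factors (45.6%) reach farthest to the left. The neural stem cell (57.1% lower) and imaginal disc (54.2% lower) lists are not drawn.

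Several lists of genes used as markers of tissues attached to or near the brain held many lower genes. Whether their reads came from those tissues or from brain cells was not tested. Lower genes made up 54.2% of the imaginal disc, 45% of the eye disc and 25% of the hemocyte list, against 13.1% of all genes. They made up 21.4% of the ring gland, 18.8% of the tracheal, 13.8% of the muscle and 8.33% of the fat body list. Imaginal disc genes held 2 higher and 13 lower of 24, with 4 higher without control library 1, and their summed level was 949.4 to 980.5 CPM in H3.2K36R brains and 1033 to 1152 CPM in control brains. Eye disc genes held 0 higher and 9 lower of 20, with sums of 1074 to 1108 CPM against 1168 to 1217 CPM. Hemocyte genes held 2 higher and 7 lower of 28, with 4 lower without control library 2, and sums of 897.0 to 994.3 CPM against 928.8 to 1150 CPM. Fat body genes held 1 and 1 of 12, with sums of 652.5 to 928.6 CPM against 956.2 to 1457 CPM. That gap lies largely in apolpp, with 508 to 560 CPM against 743 to 953 CPM, and in the storage proteins, with 9.43 to 237 CPM against 39.5 to 503 CPM. The gene apolpp is counted in the glial and lipid metabolism lists too. Muscle genes held 1 higher and 4 lower of 29, with sums of 2768 to 2827 CPM against 3094 to 3227 CPM. Their lower share was near that of all genes, and their median was 0.31. The muscle factor Mef2 was lower (−0.52, adjusted p = 6.1e-05), and the higher gene was TpnC4 (4.89 to 5.93 over 10 settings). TpnC4 was tested in only 10 of the 12 settings, with an adjusted p of up to 0.04. In the muscle list 1 gene had no reads at all in one of the groups, and such large folds can rest on few reads. Ring gland genes held 0 and 3 of 14, with 5 lower without H3.2K36R library 2, tracheal genes 1 and 3 of 16, and salivary gland genes 0 and 0 of 12. The wing factor vestigial (vg) had 10.9, 11.7 and 10.4 CPM in H3.2K36R brains against 16.2, 17.4 and 17.7 CPM in control brains (−0.64, adjusted p = 2.7e-09). The part of these tissues in the differences of other genes was not tested. Germline genes were higher in 45 of 66 cases (68.2%, against 12.3% of all genes), with 3 lower and a median of 1.52. Testis genes were higher in 5 of 20 (25%), with 1 lower, or in 3 without control library 2 or H3.2K36R library 1. The gap junction gene zpg, used by germ cells, had 6.01, 5.75 and 5.97 CPM against 0.0581, 0.0421 and 0.150 CPM.

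Changes were more frequent on the X chromosome than on the large autosomal arms. Of 2016 X-linked genes tested, 344 were higher (17.1%) and 371 lower (18.4%). On arms 2L, 2R, 3L and 3R, higher genes made up 10.3% to 12.2% and lower genes 10.9% to 12.6%. The X held 16.6% of all genes tested and 27.3% of the rises of 2-fold or more. On chromosome 4, 30 of 105 genes were lower (28.6%) and 12 higher (11.4%), and on the Y 17 of 29 were higher and 0 lower. Apart from FDY (means of 44.6 and 15.7 CPM), the higher Y genes had control means of 0 to 0.269 CPM. Their H3.2K36R means were 0.0327 to 2.62 CPM. At such control levels a fall could hardly be called, so the split of directions on the Y carries little weight. Several of these genes carry Su(Ste) names, and the placing of reads among them was not tested.

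The direction of the X-linked changes differed by the length of the gene's span in the genome, a pattern looked at after the shares by arm had been seen. Of 76 X-linked genes that span over 50 kb, 37 were higher (48.7%) and 2 lower (2.63%), with a median of 0.20. Of 235 autosomal genes of that span, 34 were higher (14.5%) and 37 lower (15.7%), with a median of 0.01. In every H3.2K36R library the median deviation of the long X-linked genes was positive, at 0.08, 0.11 and 0.09 on the log2 scale, and in every control library negative, at −0.08, −0.10 and −0.10. The number of higher long X-linked genes was 25 to 40 over the settings, the lowest with both libraries numbered 1 left out. The higher autosomal ones numbered 19 without H3.2K36R library 1. Short X-linked genes ran the other way: of those spanning 1 to 5 kb, 12.8% were higher and 22.9% lower, and among those with at least 10 CPM 4.30% were higher and 35.7% lower. Autosomal genes of 1 to 5 kb were higher in 10.9% and lower in 11.3%.

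Several of the higher long X-linked genes are known from neurons, and those named here were chosen after their values were seen. CG42594 had 37.5, 36.3 and 37.3 CPM in H3.2K36R brains against 27.2, 27.6 and 26.5 CPM in control brains (0.45, SE 0.05, adjusted p = 1.9e-08). The cyclic GMP phosphodiesterase Pde9 had 205.1, 217 and 211 CPM against 162, 159 and 166 CPM (0.38, SE 0.05, adjusted p = 4.9e-06). The receptor phosphatase Ptp10D, which acts in axon guidance, had 353, 364 and 376 CPM against 308, 311 and 325 CPM (0.21, adjusted p = 0.0013). The gap junction protein shakB (0.44, adjusted p = 0.0065), the diacylglycerol kinase rdgA (0.51, adjusted p = 0.0088) and the adhesion protein kirre (0.27, adjusted p = 0.0074) were higher as well, though without control library 2 rdgA (adjusted p = 0.057) and kirre (adjusted p = 0.051) were not called. The sodium channel para (0.21, adjusted p = 0.071), the adhesion protein Fas2 (0.20, adjusted p = 0.090) and the cyclic AMP phosphodiesterase dnc (0.14, adjusted p = 0.068) did not pass the test. The transcription factor bi was one of the 2 lower genes (−0.18, adjusted p = 0.0041). Split by chromosome, 4 of 9 ion channel genes on the X and 7 of 34 on the autosomes were higher, with medians of 0.35 and −0.03. Axon guidance genes were higher in 6 of 14 cases on the X and in 15 of 101 on the autosomes.

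**Figure D4:**
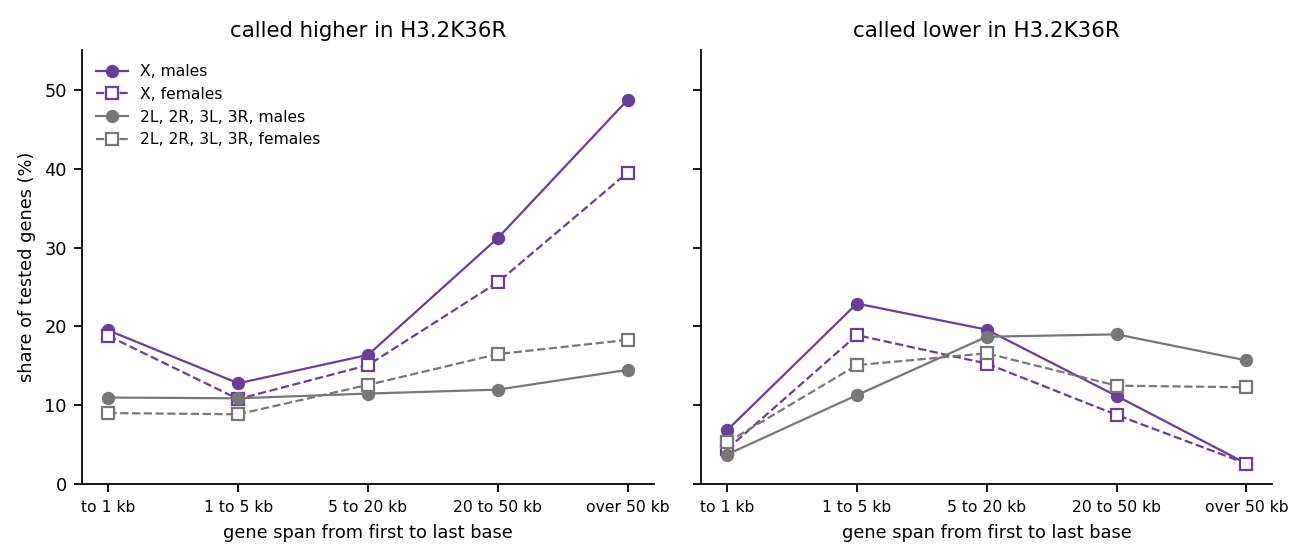
Share of tested genes called higher (left panel) and lower (right panel), in percent, by the span of the gene in kb, for X-linked genes (purple) and autosomal genes (grey) in H3.2K36R males (solid lines, filled points) and H3.2K36R females (dashed lines, open points), each over its control. In males the share called higher reaches 48.7% of X-linked genes over 50 kb and 14.5% of autosomal ones.

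Some genes with almost no reads in control brains had a clear level in H3.2K36R brains. In 114 genes every H3.2K36R library had at least 1 CPM and every control library under 0.5 CPM, whereas 5 genes showed the reverse. Of the 114, 12 were on the germline or testis lists and 102 were not. Those lists hold only 71 and 39 genes, and betaNACtes3, known from the testis, and the sperm dynein gene kl-2 are among the 102. The X held 43 of them (37.7%), and 87 were protein coding. Of the 43 on the X, 5 were rRNA genes or pseudogenes, near-identical copies whose reads cannot be placed with certainty. In all, 6 of 7 tested rRNA genes and pseudogenes were higher, each on the X, the most abundant being 28SrRNA-Psi:CR45859 with means of 6.03 CPM in H3.2K36R brains and 0.305 CPM in control brains (4.31, adjusted p = 2e-10). The libraries were selected for polyA tails, and the part of rRNA left over in them was not tested. The highest of the 114, chosen like the rRNA genes after values were seen, was X-linked CG15599, with 45.1, 52.3 and 53.1 CPM in H3.2K36R brains against 0.329, 0.217 and 0.419 CPM in control brains (7.32, SE 0.29, adjusted p = 6e-17). Among the 5 reverse cases was PPO1, a prophenoloxidase of crystal cells, a type of hemocyte, with 0.0932, 0.0471 and 0.0223 CPM against 3.88, 3.63 and 1.23 CPM. Of the Y-linked genes, FDY had 42.2, 43.9 and 47.6 CPM against 16.1, 14.1 and 16.7 CPM (1.51, adjusted p = 0.023), a call lost without any single control library or H3.2K36R library 3 (adjusted p 0.053 to 0.080). The sperm dynein gene kl-2 had 1.74, 3.42 and 2.7 CPM against 0.0581, 0 and 0.0430 CPM.

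The females of the same genotypes, which share no library with the males, gave 3018 calls (24.8%), 1351 higher (11.1%) and 1667 lower (13.7%). In both sexes 951 genes were higher and 1082 lower, and 2 were called in opposite directions. The genes called in both are 65.8% of the male calls and 67.4% of the female calls. In females as in males pros (−0.50), dati (−0.86), Parp1 (−0.77), Dop1R2 (−0.90) and Pex7 (−2.63) were lower, and dysf (3.90), Nlg1 (2.27) and Corp (0.87) higher. Of the neuronal lists, axon guidance genes were higher in 33 and lower in 3 in females, and receptors higher in 17 and lower in 3. Long X-linked genes were higher in 39.5% and lower in 2.63% in females, against 18.3% and 12.3% of long autosomal genes.

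A test of the difference of the responses (male minus female log2 fold change, edgeR interaction over all genes tested) called 8 genes (0.0658%), 2 higher (0.0164%) and 6 lower (0.0493%) in males, where 734 had an unadjusted p under 0.05. Arc1 rose more in males: its female libraries had 274, 226 and 226 CPM in H3.2K36R against 190, 125 and 142 CPM in control (0.67), and the difference was 0.91 (adjusted p = 0.027). The lipophorin gene apolpp, whose protein carries lipids in the hemolymph, had 560, 508 and 518 CPM in H3.2K36R males against 743, 953 and 793 CPM in control males. In females it had 868, 923 and 875 CPM against 893, 967 and 956 CPM, and the difference was −0.57 (adjusted p = 0.027). The groups of apolpp do not overlap in males and do in females, and the gene overlaps another on the other strand. SP1173 was 60.4, 56.7 and 56.7 CPM in H3.2K36R males against 78.7, 81.7 and 83.4 CPM in control males, and its difference was −0.40 (adjusted p = 0.045). Idgf3, a secreted chitinase-like growth factor, differed by −0.37 (adjusted p = 0.045), with −0.19 in males and 0.17 in females. Sxl, lower in males, had a difference that did not pass (−0.49, adjusted p = 0.33).

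These differences depended on single libraries. Of 17 settings, Arc1 and apolpp were called in 8 each, Idgf3 in 6 and SP1173 in 5. No gene was called without control female library 1 or 3, control male library 2, H3.2K36R female library 2 or 3, or H3.2K36R male library 2 or 3. In these 7 settings 598 to 844 genes had an unadjusted p under 0.05. The female libraries held some reads of roX2, a transcript of the male dosage compensation complex. They had 7.99, 3.75 and 1.09 CPM in H3.2K36R females and 7.52, 15.5 and 9.94 CPM in control females, against 26.8 to 30.2 CPM in H3.2K36R males and 36.3 to 49.5 CPM in control males. Its part in the sex comparison was not tested.

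**Figure D5:**
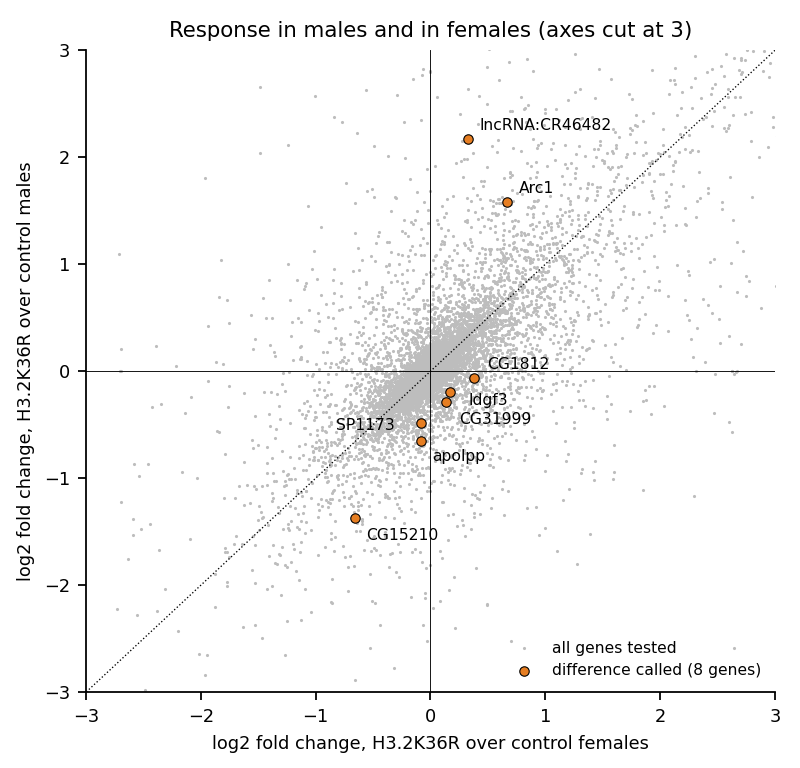
Log2 fold change of H3.2K36R over control in males (vertical axis) against that in females (horizontal axis), 1 point per tested gene, with the 8 genes whose difference between the sexes was called in orange. Axes end at 3 on either side, and 389 genes beyond are not drawn. Arc1 lies at 1.58 in males and 0.67 in females.

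Males lacking Set2 (Set21 over yw) and males with lysine 36 of H3.3 replaced (H3.3K36RH3.2HWT over H3.3CtrlH3.2HWT) share no libraries with the H3.2K36R comparison. Set21 males had 5458 calls (44.9%), 22.9% higher and 22% lower, and H3.3K36R males 1212 (9.96%), 5.88% higher and 4.08% lower. With Set21, 711 genes were higher in both and 767 lower in both, together 47.8% of the H3.2K36R calls and 27.1% of the Set21 calls, while 339 were called in opposite directions. With H3.3K36R, 185 were higher in both and 117 lower in both, 9.77% of the H3.2K36R calls and 24.9% of the H3.3K36R calls, and 152 were opposite. The difference of the responses itself was called for 3534 genes (29%) against Set21, 14.5% higher and 14.6% lower, and for 2214 (18.2%) against H3.3K36R, 8.18% higher and 10% lower.

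Single genes showed how far the responses parted. Parp1 changed by −1.05 in H3.2K36R males, −0.31 in Set21 males and −0.07 in H3.3K36R males, and its difference from the H3.3K36R response was called. Set2 itself was at −2.78 in Set21 males. The photolyase phr, which repairs ultraviolet damage, was at 0.09 in H3.2K36R males (adjusted p = 0.18) and −2.04 in Set21 males. The ionotropic receptor Ir76a was at 0.13 and 4.51. Mgstl, a glutathione transferase, was at 0.06 in H3.2K36R males and −1.89 in H3.3K36R males, and Rubicon, which restrains autophagy, at −0.13 and 1.62. The differences for these 4 genes were called. Nlg1, higher in H3.2K36R males, was at −0.25 in Set21 males (adjusted p = 0.35) and −0.05 in H3.3K36R males (adjusted p = 0.92), and PolQ, lower in H3.2K36R males, was at 1.07 in Set21 males. Long X-linked genes were higher in 31.6% and lower in 23.7% in Set21 males, where long autosomal genes were higher in 10.6% and lower in 47.2%. In H3.3K36R males these shares were 17.1% and 6.58% on the X, against 5.96% and 1.70% on the autosomes.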

How the data were processed

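The values analysed are raw counts of reads per gene, deposited by the authors with no normalization, 1 column per library. Per the submitters' processing notes the tools were STAR 2.7.2a and Subread 2.0.3. Settings, the genome build and the use of strand: not given in the sources used here. Between 80.3% and 82.9% of the values from 1 to 4 were even in the 6 libraries, so values are called reads, not pairs. Genes were matched by identifier to Ensembl release 115 (17527 of 17606), for symbol, arm and span only.

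Counts of 36 libraries in 12 groups were filtered (filterByExpr, minimum count 10), scaled with TMM and fitted with edgeR 4.0.16 (quasi-likelihood, R 4.3.3, limma 3.58.1), with calls at an adjusted p of 0.05. Fold changes are log2, H3.2K36R over control. Differences of responses are interactions in that fit. DESeq2 1.42.0, RLE scaling, no filter, a fit of the compared groups, a replicate block and leaving out libraries were alternatives. The fit was tested on simulated data. Intervals cover no biological source beyond these libraries. Same-group libraries were compared by chi-square over genes, which gave 7.86 to 48.4 per degree of freedom, so none was taken for a duplicate.

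Genes, gene lists and tests were chosen with earlier results of these data known. Named genes are Set2, Sxl, msl-2, both roX genes and the H3.3 genes, the 12 largest rises and falls and the 8 largest changes in CPM at 5 CPM or more without overlap, outside germline, testis, neural stem cell, Y-linked and bare-numbered genes, up to 4 called members per list by p, and the smallest p per difference. Genes named outside this rule were chosen after their values were seen: CG15599, CG42594, Imp, CoRest, HP1a, Dop1R1, NaCP60E, VGlut, Gapdh1, hid, Scr, en, al, fru, dsx, Poxn, FDY, kl-2, zpg, the markers elav, brp, repo, dpn, mira and ase, and the long X-linked genes Pde9, Ptp10D, shakB, rdgA, kirre, para, Fas2, dnc and bi.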

Additional observations from a re-analysis of the deposited data

Results flagged for a closer look

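In 8 genes the response to H3.2K36R differed between males and females by the test of the difference itself (male minus female log2 fold change, edgeR interaction, Benjamini-Hochberg over all genes tested). Arc1 differed by 0.91, with 1.58 in males and 0.67 in females. The long noncoding RNA CR46482 differed by 1.84, with 2.17 in males and 0.33 in females. The lipophorin gene apolpp differed by −0.572 and SP1173 by −0.402, each lower in males by more than in females. CG15210 differed by −0.712, with −1.37 in males and −0.66 in females. CG1812 differed by −0.439, CG31999 by −0.416 and Idgf3 by −0.365, in each case with a value below 0 in males and above 0 in females. These calls depend on single libraries, since 7 of the 12 fits that left out 1 library called no gene, and the part of roX2-bearing female libraries was not tested.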

How the results depend on the processing

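The count of changed genes was 2457 to 2790 with 1 library left out (1072 to 1294 higher, 1367 to 1581 lower, 629 to 703 at 2-fold or more). Fits of the difference from females gave 0 to 21 calls in this way (0 to 6 higher, 0 to 15 lower), the difference from Set21 males 3112 to 3408 (1398 to 1615 higher, 1545 to 1941 lower), and the difference from H3.3K36R males 1668 to 2172 (770 to 994 higher, 898 to 1232 lower). The X-to-autosome shift ran from −0.0248 to −0.0112. The numbers of the libraries do not pair them (correlations of deviations 0.188, −0.0727 and 0.166), and with a replicate block 1872 genes were called, 863 of them lower, 1180 were lower in the difference from Set21 males, and 0 differed between the sexes. A fit of the compared groups alone also gave 0 calls between the sexes, where 612 genes had an unadjusted p under 0.05 (763 with the block), DESeq2 gave 38 (17 higher, 21 lower), and no filter gave 1 higher. The cause of these moves was not tested beyond the fewer samples in a fit. With 1 library left out, roX1 ran from −7.8e-05, without control male library 1, to 0.196, and msl-2 from −0.0929 to 0.0202, without control male library 3, so each changed sign once, and neither was called in any setting. The gene roX2 was called lower in the fit of the compared groups alone (−0.618) and with the block (−0.608), and in no other. Of 225 named genes that were called, 175 were called in each of the 12 settings in which they were tested. Among these 175, RYa and TpnC4 were tested in only 10 settings.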
